A study of Mus musculus with 16 samples.

Results

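Astrocytes take up the glutamate and potassium that active neurons release, move water across their endfeet at blood vessels and share small molecules through gap junctions. The 10 genes described here encode parts of that machinery or mark the cells that carry it: the water channel Aqp4, the membrane protein Mlc1, the potassium channel Kcnj10, the glutamate transporters Slc1a2 and Slc1a3, the glutamine synthetase Glul, the connexins Gja1 and Gjb6, the folate enzyme Aldh1l1 and the transcription factor Sox9. They were named as a functional set, and the rule took every probe set that the platform annotation pairs with one of their symbols. That gave 30 of the 45037 probe sets on the array, of which 28 passed the filter on low values and were tested among 27044. Another probe set, shared by Slc1a2 and Gm13872, was left out, and the Slc1a3 probe set 1439072_at and the Sox9 probe set 1433889_at did not pass the filter.

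Hippocampal RNA of C57BL/6J mice was hybridized to 16 arrays, each with a pool of 3 to 4 mice of 1 age, sex and genotype. VP16-CREB is a form of the transcription factor CREB that activates its targets without upstream signals, and it was switched on by taking doxycycline (dox) away. There were 3 pools of tetO-VP16-CREB mice 3 weeks off dox and 3 of their WT littermates, both 6 weeks old, and 2 pools of tetO-VP16-CREB mice 1 week off dox and 2 of their WT littermates, both 3 weeks old. The WT littermates of both cohorts had been raised with dox and taken off it like the transgenic mice. A-CREB acts the other way, as a dominant negative partner that holds CREB away from DNA. There were 3 pools of TetO-A-CREB-95 mice and 3 of their WT littermates, all 6 weeks old and raised without dox. The design text calls the induced mice bitransgenic, and the line that drives the transgenes is not given in the sources used here, so the cell type that carries them cannot be read from the labels. Whole hippocampus was measured, so more or fewer astrocytes and more or less RNA per astrocyte cannot be told apart. The labels do not say how independent the pools were beyond the mice in them, and p-values measure the spread between these pools.

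Values are MAS5 intensities on a linear scale, each array scaled to a trimmed mean of 500. A log2 difference is that of log2(intensity + 10) between a transgenic group and its own littermates, and calls are those with an adjusted p under 0.05 (limma, Benjamini-Hochberg over the 27044 probe sets). A gene with several probe sets is described by the one of highest mean intensity, its main probe set, and by the others. Apart from that choice, summed intensities and the words bright or dim, intensities were not compared between probe sets. Whole-array medians lay between 118.9 and 129.3 in the cohort 3 weeks off dox (6 arrays) and between 75.0 and 93.2 elsewhere (10 arrays), and no pair of arrays held identical values. Each transgenic group was therefore read against the littermates of its own cohort. Of 5 tested Creb1 probe sets 2 were called higher in VP16-CREB pools at each time off dox, and 0 were called in A-CREB pools (limma, 1 at an unadjusted p under 0.05), and whether they read the transgenes was not tested. The 20 other general astrocyte markers on the lists were all above the filter, which shows that they were measured, not which cells gave the signal.

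CREB binds the cyclic AMP response element (CRE), TGACGTCA, and its shorter core TGACG. Promoter windows of 300 bases, 250 before a transcript start and 50 after, were taken from RefSeq (GRCm38.p6) and were present in that table for 8 of the 10 genes, not for Aqp4 and Sox9. The core TGACG, on either strand, occurred in 2 of the 8 windows, those of Gja1 and Slc1a3, against 20.8% of 32851 windows in the table. The full element occurred in 0 of the 8, against 1.79% of all windows. Each full element holds the core on both strands. A match describes the letters in the window and is not a binding site. The windows printed here are those of Mlc1 and Kcnj10, whose probe sets were called 3 weeks off dox, and of Slc1a3 and Gja1, whose probe sets were not. Capitals mark the core, written CGTCA where it lies on the other strand. The Mlc1 window lies within the annotated span of the gene.
Mlc1, chr15:88978504-88978803, - strand: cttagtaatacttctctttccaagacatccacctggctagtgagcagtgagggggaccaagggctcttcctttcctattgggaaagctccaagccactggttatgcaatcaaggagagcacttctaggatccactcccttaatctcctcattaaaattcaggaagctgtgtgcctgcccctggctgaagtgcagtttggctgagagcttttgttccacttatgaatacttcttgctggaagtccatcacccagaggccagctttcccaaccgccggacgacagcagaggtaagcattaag
Kcnj10, chr1:172340960-172341259, + strand: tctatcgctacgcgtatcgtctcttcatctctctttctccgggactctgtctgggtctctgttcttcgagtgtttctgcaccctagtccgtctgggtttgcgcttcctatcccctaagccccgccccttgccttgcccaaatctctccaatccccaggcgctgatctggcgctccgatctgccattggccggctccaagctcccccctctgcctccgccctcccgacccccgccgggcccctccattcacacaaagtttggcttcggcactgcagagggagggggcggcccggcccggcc
Slc1a3, chr15:8710758-8711057, - strand: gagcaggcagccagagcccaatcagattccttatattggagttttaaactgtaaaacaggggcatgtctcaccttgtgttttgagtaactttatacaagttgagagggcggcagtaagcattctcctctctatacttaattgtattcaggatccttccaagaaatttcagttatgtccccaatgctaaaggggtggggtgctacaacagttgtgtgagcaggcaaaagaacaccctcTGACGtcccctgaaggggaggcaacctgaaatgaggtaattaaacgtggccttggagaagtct
Gja1, chr10:56377050-56377349, + strand: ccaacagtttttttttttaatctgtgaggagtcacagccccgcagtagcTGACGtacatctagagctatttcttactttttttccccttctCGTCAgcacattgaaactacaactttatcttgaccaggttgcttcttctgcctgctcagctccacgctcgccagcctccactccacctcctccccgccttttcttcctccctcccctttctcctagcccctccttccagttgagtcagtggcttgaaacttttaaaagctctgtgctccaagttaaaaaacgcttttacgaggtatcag
In the Slc1a3 window the core began 13 bases before the start site. In the Gja1 window the 2 copies began 201 and 159 bases before it. The windows of Mlc1 and Kcnj10 held none.

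At 3 weeks off dox, 5 of the 28 probe sets were called higher in VP16-CREB pools than in littermates, against 3.28% of all probe sets tested, and 0 were called lower, against 0.651%. The 5 belonged to 4 genes: Aqp4 (2 probe sets), Mlc1, Kcnj10 and Sox9. No probe set of Slc1a2, Slc1a3, Glul, Gja1, Gjb6 or Aldh1l1 was called, although array weights added calls for Slc1a3, Gjb6 and Aldh1l1. The log2 difference was positive in 24 of the 28 probe sets, where 48.0% of all probe sets tested were positive. Over the 10 main probe sets the median log2 difference was 0.66, with a range of -0.07 to 1.13, against a median of -0.01 over all probe sets. Every VP16-CREB pool lay above every littermate pool in 13 of the 28, against 14.9% of all probe sets, and every one lay below in 0. One of the 24 and of the 13, Aldh1l1 1424401_at, passed the filter only through VP16-CREB pools of this group, while the 5 called probe sets lay above the filter value on all 16 arrays.

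**Figure D1:**
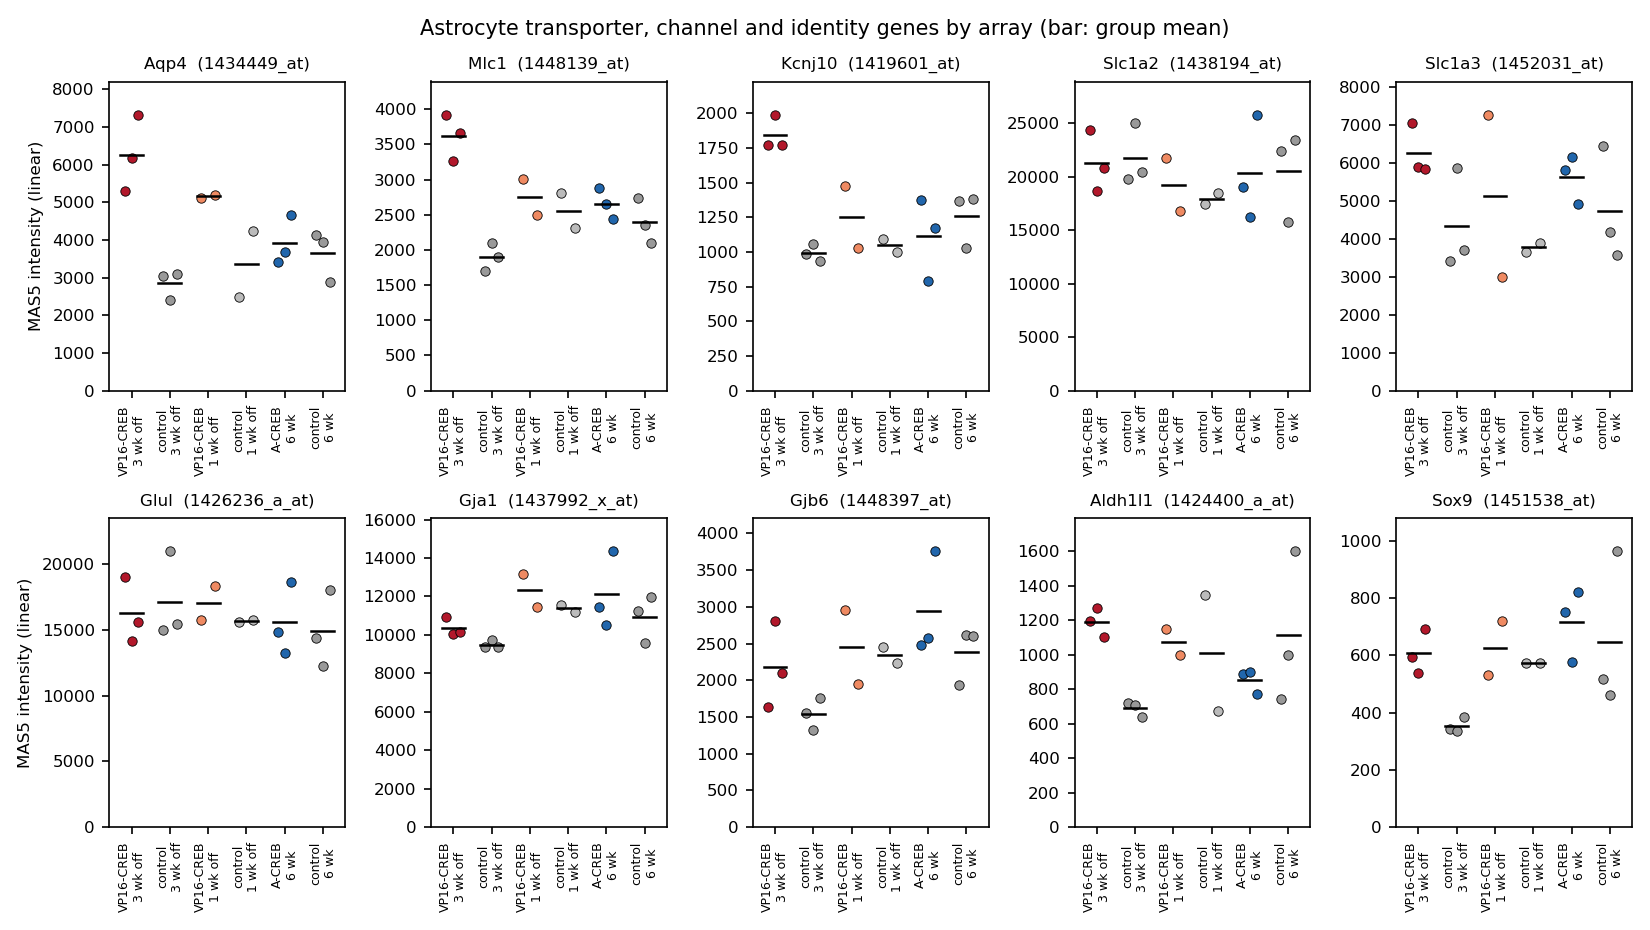
MAS5 intensity (linear scale, from 0) of the main probe set of each of the 10 genes on the 16 arrays, by group. Points are pools and bars are group means. For Aqp4, Mlc1, Kcnj10, Gja1, Aldh1l1 and Sox9 the 3 VP16-CREB pools 3 weeks off dox lay above their 3 littermate pools. For Slc1a2, Slc1a3, Glul and Gjb6 the pools overlapped.

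Aqp4 (chromosome 18, 15389394 to 15410982, GRCm38) encodes the water channel of astrocyte endfeet. Its main probe set 1434449_at read 5296, 6166 and 7332 in the VP16-CREB pools 3 weeks off dox, against 3053, 2401 and 3096 in littermates. All 3 transgenic pools stood above all 3 littermate pools, and the lowest of them was 5296. The means were 6265 ± 1022 and 2850 ± 389 (SD, n = 3 each), a 2.19-fold difference (log2 1.13, SE 0.22, adjusted p = 0.00894, limma). Its second probe set 1425382_a_at read 4293, 5493 and 6321 in VP16-CREB pools, against 2767, 1772 and 2804 in littermates. It differed by a similar 1.14 log2 (SE 0.23, adjusted p = 0.0100, limma). The dimmer 1447745_at read 637, 873 and 970 in VP16-CREB pools, against 320, 272 and 353 in littermates, also without overlap. Its log2 difference of 1.35 had a wider error (SE 0.41) and was not called (adjusted p = 0.102, limma). The call of the main probe set was lost without VP16-CREB replicate 3 (adjusted p = 0.0594), and that of 1425382_a_at without that pool (0.0649) or without littermate replicate 2 (0.0508).

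Mlc1 (chromosome 15, 88955884 to 88982693) encodes a membrane protein of endfeet and astrocyte contacts that takes part in cell volume regulation, and its human counterpart is mutated in a leukodystrophy with cysts. Its probe set 1448139_at read 3924, 3268 and 3658 in VP16-CREB pools 3 weeks off dox, against 1695, 2098 and 1905 in littermates. The groups did not overlap, and the highest littermate pool was 2098. The means were 3617 ± 330 and 1899 ± 202 (SD, n = 3 each), a 1.90-fold difference (log2 0.93, SE 0.15, adjusted p = 0.00302, limma). This call held when each of the 6 pools was left out in turn, with a highest adjusted p of 0.0216.

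Kcnj10 (chromosome 1, 172341210 to 172374085) encodes Kir4.1, the inward rectifier that carries potassium into glia. Its probe set 1419601_at read 1771, 1990 and 1771 in VP16-CREB pools 3 weeks off dox, against 986, 1059 and 937 in littermates. The pools of each group lay close together and the groups were far apart. The means were 1844 ± 127 and 994 ± 61.5 (SD, n = 3 each), a 1.85-fold difference (log2 0.88, SE 0.20, adjusted p = 0.0259, limma). The call was near the threshold: it was lost in each of the 6 fits that left out 1 pool, with adjusted p from 0.0614 to 0.111 and log2 differences from 0.83 to 0.93.

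Slc1a2 (chromosome 2, 102658239 to 102790784) encodes GLT-1, the main glutamate transporter of forebrain astrocytes. Its bright main probe set 1438194_at read 24378, 18630 and 20853 in VP16-CREB pools 3 weeks off dox, against 19767, 25043 and 20470 in littermates. The ranges of the groups overlapped almost wholly. The log2 difference was -0.03 (95% interval -0.48 to 0.41, adjusted p = 0.980, limma). The probe sets of the gene disagreed: 1451627_a_at read 460, 529 and 502 in VP16-CREB pools, against 321, 294 and 356 in littermates. It showed no overlap and a log2 difference of 0.61 (SE 0.19), not called (adjusted p = 0.118, limma). The other 3 Slc1a2 probe sets overlapped between groups, with log2 differences of -0.20, 0.22 and -0.21.

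Slc1a3 (chromosome 15, 8634124 to 8710807) encodes GLAST, the transporter that also marks radial glia. Its main probe set 1452031_at read 7043, 5888 and 5832 in VP16-CREB pools 3 weeks off dox, against 3399, 5860 and 3705 in littermates. Littermate replicate 2 lay among the transgenic pools, and the other 2 littermates lay below them. The log2 difference was 0.57 (95% interval -0.09 to 1.23, adjusted p = 0.478, limma). The probe sets 1443749_x_at, 1426340_at and 1426341_at, differed by 0.37, 0.32 and 0.39 log2 without a call, and 1440491_at by 0.04.

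Glul (chromosome 1, 153899929 to 153909723) encodes glutamine synthetase, which turns the glutamate taken up into glutamine. Its main probe set 1426236_a_at read 19060, 14167 and 15583 in VP16-CREB pools 3 weeks off dox, against 15002, 21007 and 15484 in littermates. The groups overlapped, with the highest pool among the littermates. The log2 difference was -0.07 (95% interval -0.49 to 0.35), and at the second probe set, 1426235_a_at, it was 0.08. Neither was called (adjusted p = 0.951 and 0.955, limma).

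Gja1 (chromosome 10, 56377300 to 56390419) encodes connexin 43, the main gap junction protein of astrocytes. Its main probe set 1437992_x_at read 10933, 10034 and 10172 in VP16-CREB pools 3 weeks off dox, against 9387, 9721 and 9376 in littermates. The groups did not overlap, yet they were close. The fold was 1.09 (log2 0.13, 95% interval -0.18 to 0.44, adjusted p = 0.833, limma). The other 5 Gja1 probe sets had log2 differences of 0.17, 0.20, 0.42, 0.24 and 0.59, all positive and none called. Gjb6 (chromosome 14, 57123301 to 57133611) encodes connexin 30, its partner in astrocytes. Its probe set 1448397_at read 1640, 2809 and 2093 in VP16-CREB pools 3 weeks off dox, against 1556, 1316 and 1752 in littermates. VP16-CREB replicate 1 lay inside the littermates' range. The log2 difference was 0.47 (95% interval -0.04 to 0.98, adjusted p = 0.426, limma).

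Aldh1l1 (chromosome 6, 90550768 to 90599171) encodes a folate dehydrogenase widely used as a pan-astrocyte marker. Its main probe set 1424400_a_at read 1192, 1268 and 1102 in VP16-CREB pools 3 weeks off dox, against 719, 708 and 641 in littermates. The groups did not overlap. The difference of 1.71-fold (log2 0.78, SE 0.26) was not called (adjusted p = 0.157, limma), and the spread it was set against came from all 6 groups. Within the 6 arrays of this cohort alone it was called (adjusted p = 0.0128, limma). The dim 1424401_at read 95.1, 124 and 108 in VP16-CREB pools, against 66.9, 55.1 and 63.6 in littermates, a log2 difference of 0.72. It passed the filter only through 2 of these VP16-CREB pools, so its direction was set by the filter.

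Sox9 (chromosome 11, 112782210 to 112787757) encodes a transcription factor needed for gliogenesis and kept in adult astrocytes. Its probe set 1424950_at read 466, 477 and 479 in VP16-CREB pools 3 weeks off dox, against 243, 278 and 269 in littermates. The transgenic pools lay close together and far above the littermates. The difference was 1.77-fold (log2 0.83, SE 0.16, adjusted p = 0.00756, limma), and it remained called without each of the 6 pools in turn. The brighter main probe set 1451538_at read 595, 538 and 693 in VP16-CREB pools, against 343, 336 and 385 in littermates. It showed a close log2 difference of 0.76 with a wider error (SE 0.24) and was not called (adjusted p = 0.124, limma). At this main probe set the VP16-CREB pools averaged 609. The WT littermates of the other cohorts averaged 573 (3 weeks old) and 647 (A-CREB cohort). At main probe sets this cohort's littermates also averaged lower than both those groups for Aqp4, Mlc1, Kcnj10, Gja1, Gjb6 and Aldh1l1. This was not so for Slc1a2, Slc1a3 and Glul. Mlc1 averaged 1899, against 2557 and 2399, Aldh1l1 689, against 1009 and 1113, and Gjb6 1541, against 2341 and 2384. The VP16-CREB pools overlapped with those other littermates for Gja1, Gjb6 and Aldh1l1, not for Aqp4, Mlc1 and Kcnj10. The part of cohort was not tested.

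**Figure D2:**
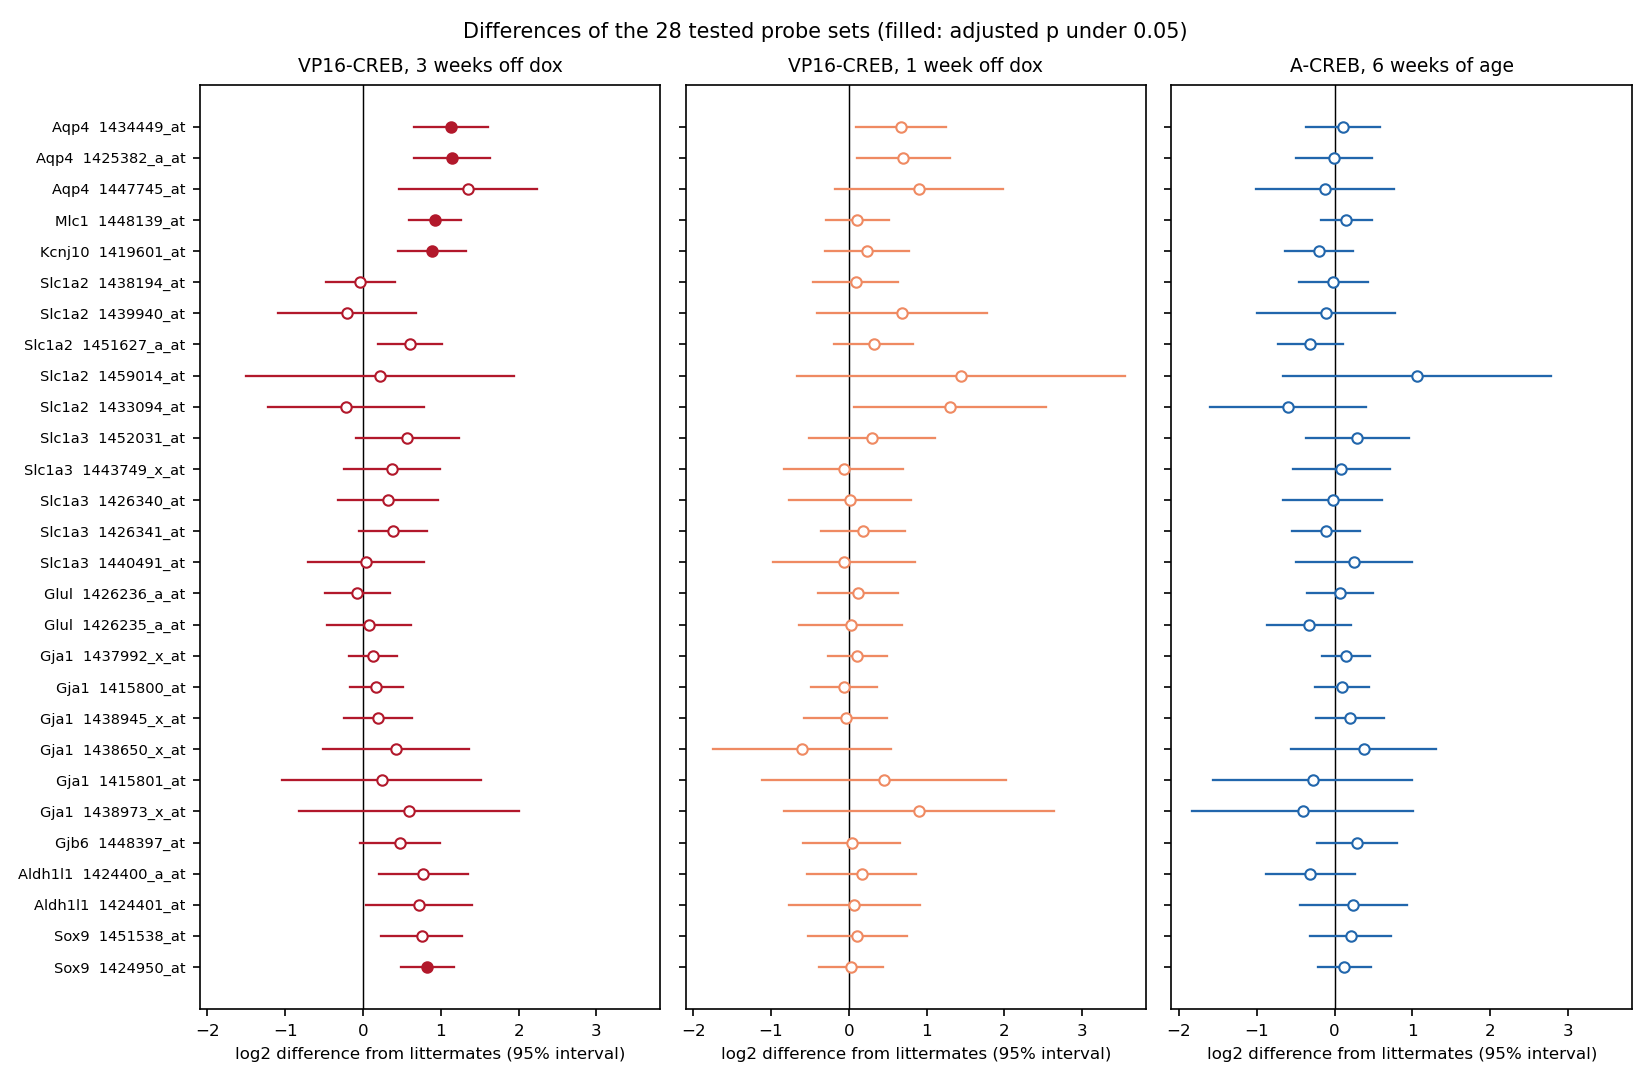
Log2 difference of log2(intensity + 10) from littermates (x axis) with its 95% interval for the 28 tested probe sets (y axis), in VP16-CREB 3 weeks off dox, VP16-CREB 1 week off dox and A-CREB at 6 weeks of age. Filled points were called at an adjusted p under 0.05: 5 at 3 weeks off dox, 0 at 1 week and 0 in A-CREB.

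At 1 week off dox, 0 of the 28 probe sets were called (limma), against 0.237% of all probe sets (0.218% higher). Of the 28, 3 had an unadjusted p under 0.05, against 5.27% of all. The main probe sets had a median log2 difference of 0.11, with a range of 0.04 to 0.67. Aqp4 was the gene at the top of that range. Its main probe set read 5124 and 5208 in VP16-CREB pools 1 week off dox, against 2483 and 4231 in littermates. The transgenic pools agreed closely with each other while the littermates were far apart. The log2 difference was 0.67 (95% interval 0.09 to 1.25, adjusted p = 0.780, limma). The second Aqp4 probe set read 4010 and 4020 in VP16-CREB pools, against 2705 and 2246 in littermates, and the third 909 and 1099 in VP16-CREB pools, against 506 and 554 in littermates. All 3 Aqp4 probe sets were without overlap. The pools lay above littermates without overlap in 7 of the 28 probe sets, against 15.7% of all probe sets. Outside Aqp4 these were Gja1 1438973_x_at and Slc1a2 1439940_at, 1451627_a_at and 1433094_at. At 1451627_a_at the groups almost touched (lowest VP16-CREB pool 480.9, highest littermate pool 479.8). At 1433094_at every pool of both groups was below the filter value.

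The pools of Mlc1, Kcnj10 and Sox9 1424950_at, called at 3 weeks, overlapped with littermates at 1 week. Mlc1 read 3016 and 2502 in VP16-CREB pools 1 week off dox, against 2804 and 2309 in littermates (log2 0.11, 95% interval -0.30 to 0.52). Kcnj10 read 1474 and 1031 in VP16-CREB pools, against 1092 and 1002 in littermates (log2 0.23, 95% interval -0.30 to 0.77). Sox9 1424950_at read 270 and 364 in VP16-CREB pools, against 305 and 310 in littermates (log2 0.03, 95% interval -0.39 to 0.45). Slc1a3 1452031_at read 7261 and 2977 in VP16-CREB pools, against 3645 and 3890 in littermates, so 1 transgenic pool was above and the other below both littermates. With 2 pools a group, the interval of Aqp4 1434449_at admits a difference as large as that called at 3 weeks. For Mlc1, Kcnj10 and Sox9 1424950_at the upper bounds of 0.52, 0.77 and 0.45 lay below the differences called at 3 weeks (0.93 for Mlc1). Those called differences carry errors of their own, so this does not test a change between the times.

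Whether the effect of VP16-CREB was larger 3 weeks off dox than 1 week off was tested as a difference of differences. In that test 0 of the 28 probe sets were called (limma), against 0.0037% of all probe sets. Of the 28, 2 had an unadjusted p under 0.05, against 4.99% of all. These were Mlc1, with a log2 difference of 0.82 between the effects (95% interval 0.29 to 1.34, adjusted p = 0.599, limma), and Sox9 1424950_at, with 0.80 (95% interval 0.26 to 1.33, adjusted p = 0.629, limma). For Aqp4 1434449_at the effects differed by 0.46 (95% interval -0.29 to 1.21). Time off dox, age and cohort moved together and cannot be told apart in this contrast.

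In A-CREB mice, 0 of the 28 probe sets were called (limma), against 0% of all probe sets, and 0 had an unadjusted p under 0.05, against 4.33% of all. In none of the 28 did the 3 A-CREB pools lie wholly above or wholly below the 3 littermate pools, against 6.82% of all probe sets. The main probe sets ranged from -0.31 (Aldh1l1) to 0.29 (Gjb6) on the log2 scale, with a median of 0.13. Aqp4 1434449_at read 3423, 3674 and 4677 in A-CREB pools, against 4138, 3942 and 2885 in littermates (log2 0.11, 95% interval -0.37 to 0.58). Mlc1 read 2888, 2648 and 2438 in A-CREB pools, against 2745, 2357 and 2096 in littermates (log2 0.15, 95% interval -0.18 to 0.49). Kcnj10 read 1375, 789 and 1173 in A-CREB pools, against 1365, 1029 and 1381 in littermates (log2 -0.20, 95% interval -0.64 to 0.24). In each of these 3 genes the groups overlapped. Slc1a2 1438194_at read 19043, 16221 and 25808 in A-CREB pools, against 22367, 15734 and 23410 in littermates, and Gja1 1437992_x_at read 11466, 10534 and 14360 in A-CREB pools, against 11251, 9554 and 11959 in littermates. In both genes replicate 2 was the lowest pool of the A-CREB group and of its littermates. Same-numbered pools also moved together at Aqp4 1447745_at, at 481, 882 and 277 in A-CREB pools, against 505, 1020 and 297 in littermates. At Aqp4 1434449_at they ran in opposite order. Where pools move together, groups overlap more readily and the unpaired error is wider, which limits what the absence of calls shows.

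Set directly against each other, the effects of VP16-CREB 3 weeks off dox and of A-CREB differed at a called level in 0 of the 28 probe sets (limma), against 0.887% of all. Of the 28, 8 had an unadjusted p under 0.05, against 8.69% of all. The difference of the effects, VP16-CREB minus A-CREB, was 1.09 log2 for Kcnj10 (95% interval 0.46 to 1.71, adjusted p = 0.136, limma). It was 1.02 and 1.15 for Aqp4 1434449_at and 1425382_a_at (adjusted p = 0.223 and 0.165, limma) and 0.77 for Mlc1 (adjusted p = 0.172, limma). For Slc1a2 1438194_at and Gja1 1437992_x_at it was -0.02 in each case, with 95% intervals of -0.65 to 0.61 and -0.45 to 0.42. The 2 lines also differed in dox history and cohort.

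In WT littermates no main probe set was called between 6 and 3 weeks of age. In the VP16-CREB cohort the log2 differences of the main probe sets, 6 weeks minus 3 weeks, ran from -0.68 (Sox9) to 0.27 (Slc1a2), and in the A-CREB cohort from -0.09 to 0.28. The littermates of 6 weeks in the VP16-CREB cohort were higher than those of 3 weeks in 3 of the 28 probe sets, against 13.7% of all probe sets, and lower in 0, against 4.25%. The share of higher calls was thus near that of all probe sets. It includes Slc1a2 1433094_at and Slc1a3 1440491_at, which passed the filter only through arrays of this cohort, so the nearness shows little. Slc1a2 1439940_at read 2100, 823 and 1840 at 6 weeks, against 336 and 375 at 3 weeks (log2 2.02, SE 0.46, adjusted p = 0.00777, limma). All 3 older pools stood above both younger ones. The littermates of 6 weeks in the A-CREB cohort read 1603, 1156 and 2212 at this probe set, again above both younger pools (log2 2.14, SE 0.46), but were not called (adjusted p = 0.182, limma). In that comparison 0 of the 28 were called (limma), against 0% of all probe sets, and 1 had an unadjusted p under 0.05, against 5.56% of all. The comparisons share the 3 week littermates.

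The other 2 calls, Slc1a2 1433094_at (log2 2.42) and Slc1a3 1440491_at (log2 2.01), had to differ and support nothing: both passed the filter only through arrays of the cohort in which they are high. Slc1a3 1440491_at read 112, 73.9 and 99.4 in the 6 week littermates of the VP16-CREB cohort, against 21.2 and 11.4 at 3 weeks. In the 6 week littermates of the A-CREB cohort it read 23.7, 5.90 and 29.1, within reach of the younger pools. The VP16-CREB pools of the first cohort were as high at this probe set, at 113, 79.2 and 101, and the 10 arrays of the other cohorts reached at most 34.0. The median intensity of whole arrays was higher in that cohort too, as given above, and its part in these calls was not tested. With arrays centred on their median, which moved the median of all probe sets by over 0.1 log2 (-0.48, against 0.07 as deposited), the same comparison gave 14 called probe sets, 3 higher and 11 lower, against 8.90% and 38.1% of all probe sets. Age cannot be told apart from cohort.

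**Figure D3:**
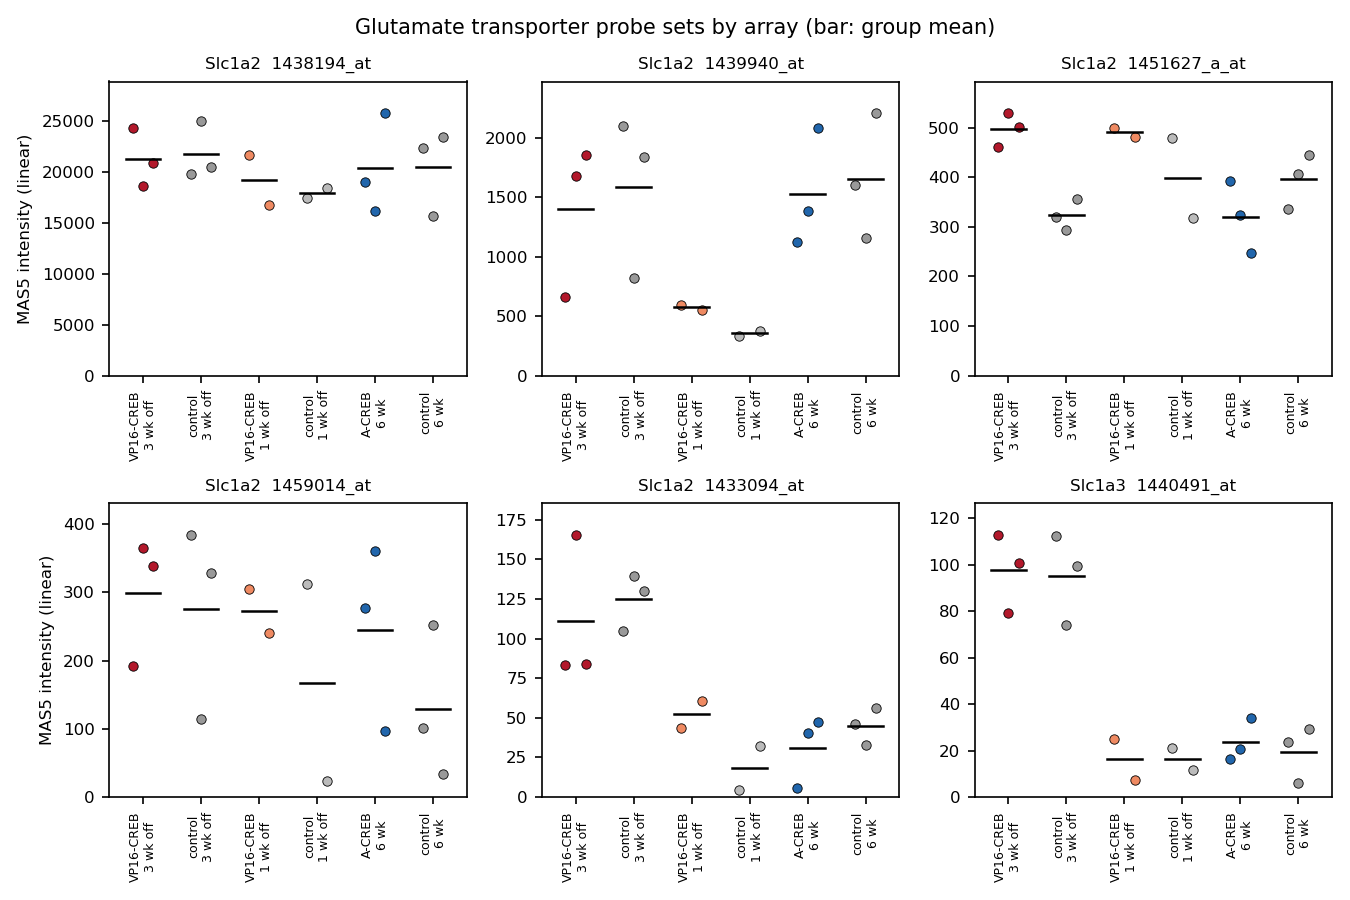
MAS5 intensity (linear scale, from 0) of the 5 Slc1a2 probe sets and of Slc1a3 1440491_at on the 16 arrays, by group, with group means as bars. Slc1a2 1439940_at was low in the 4 pools of 3 weeks of age, and Slc1a3 1440491_at was high in the 6 pools of the cohort 3 weeks off dox.

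Other genes of the same pathways were mostly not called at 3 weeks off dox. Of 13 measured genes of glutamate and GABA uptake and the glutamine cycle, 1 rose and 0 fell, with a median log2 difference of 0.02. The gene that rose was Slc1a4, a neutral amino acid transporter, at 1024, 892 and 824 in VP16-CREB pools, against 485, 488 and 515 in littermates (log2 0.86, SE 0.18, adjusted p = 0.0120, limma). Of 8 measured genes of glial potassium and ion handling, 2 rose and 0 fell, with a median of 0.10. Fxyd1, the phospholemman regulator of the sodium pump, read 3222, 3080 and 3166 in VP16-CREB pools, against 1368, 1526 and 1328 in littermates (log2 1.16, SE 0.21, adjusted p = 0.00591, limma). Atp1b2, the pump's glial beta subunit, read 6834, 7261 and 7106 in VP16-CREB pools, against 4501, 4632 and 4531 in littermates (log2 0.63, SE 0.14, adjusted p = 0.0230, limma). In all 3 genes the groups were clearly apart. The littermates of this cohort averaged lower than the other WT littermates, those 3 weeks old and those of the A-CREB cohort. Slc1a4 averaged 496, against 742 and 800, Fxyd1 1407, against 2060 and 1852, and Atp1b2 4555, against 6200 and 5572. The VP16-CREB pools overlapped with those other littermates for Slc1a4 and Atp1b2, not for Fxyd1. The part of cohort was not tested.

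No gene was called among the other pathway lists at 3 weeks off dox. These held 10 measured genes of other aquaporins and the endfoot anchoring complex (median log2 -0.04), 8 of other connexins and pannexins (0.15), 7 folate enzymes (0.10) and 15 glial transcription factors (-0.10). Dag1 and Dtna, which encode dystroglycan and dystrobrevin of the complex that anchors the Aqp4 protein, differed by 0.18 and 0.01 log2. Panx1 and Panx2, channel proteins related to gap junction proteins, differed by 0.32 and -0.29. Mthfd1 and Gldc, enzymes of one-carbon metabolism, differed by 0.10 and 0.09. Nfix and Id4, transcription regulators found in astrocytes, differed by -0.18 and -0.09. At 1 week off dox and in A-CREB mice 0 genes of the 6 pathway lists were called.

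Most astrocyte markers outside the set were slightly higher at 3 weeks off dox, while reactive astrocyte genes moved by far more. Of 20 other general astrocyte markers 18 were positive, against 48.0% of all probe sets tested. Their median log2 difference was 0.33, against -0.01 over all probe sets, and 1 was called higher, against 3.28%. That was Plcd4, a phospholipase C gene, at 502, 664 and 649 in VP16-CREB pools, against 270, 340 and 334 in littermates (log2 0.92, adjusted p = 0.0345, limma). Of 16 measured reactive astrocyte genes 13 rose and 0 fell, with a median of 2.56. The largest called differences were those of the chemokine gene Cxcl10 (3.65), the lipocalin gene Lcn2 (3.33), the transglutaminase gene Tgm1 (3.24) and the protease inhibitor gene Serpina3n (2.96). The littermates averaged 31.9, 37.0 and 21.6 for Cxcl10, Lcn2 and Tgm1, so those differences depend on the pseudocount of 10. Gfap, the intermediate filament gene, was added after its values were seen: it averaged 13832 ± 2723 in VP16-CREB pools and 2009 ± 170 in littermates (SD, n = 3 each, log2 2.76).

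**Figure D4:**
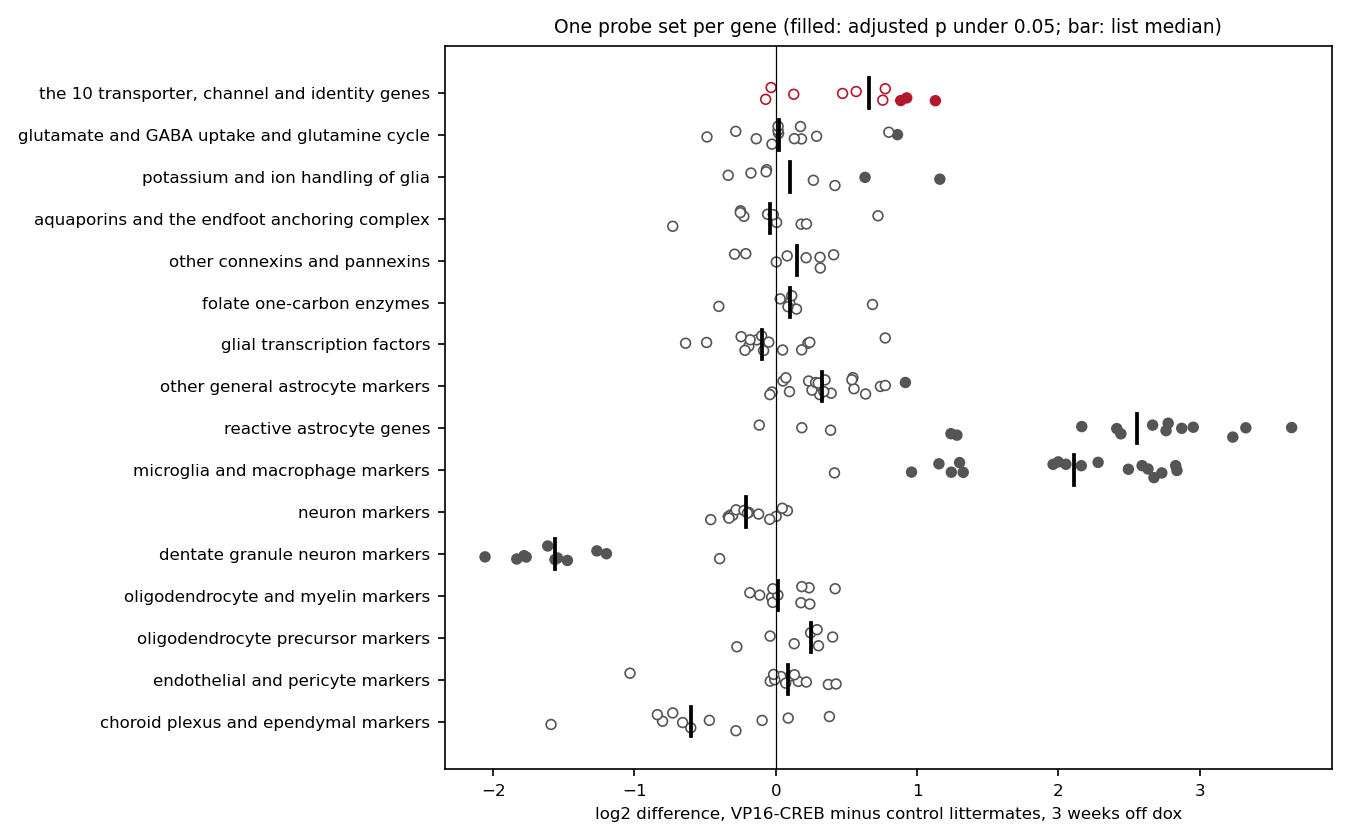
Log2 difference between VP16-CREB pools 3 weeks off dox and littermates (x axis) for 1 probe set per gene, by gene list (y axis), with list medians as bars and called genes filled. The 10 transporter, channel and identity genes had a median of 0.66, other general astrocyte markers 0.33, reactive astrocyte genes 2.56, microglia and macrophage markers 2.11 and dentate granule neuron markers -1.56.

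Markers of other cells moved with the same comparison, and their part in the differences above was not tested. Of 18 microglia and macrophage markers 17 rose and 0 fell, and their summed intensity was 73622 to 88147 in VP16-CREB pools 3 weeks off dox, against 18329 to 18924 in littermates. Of 11 measured dentate granule neuron markers 10 fell and 0 rose, with sums of 5916 to 6178 in VP16-CREB pools, against 15992 to 16292 in littermates. The 14 general neuron markers had 0 calls, a median log2 difference of -0.21 and overlapping sums of 109827 to 145589 in VP16-CREB pools, against 128394 to 169015 in littermates. The 11 myelin, 7 oligodendrocyte precursor, 12 endothelial and pericyte and 11 choroid plexus and ependymal markers measured had 0 calls, with medians of 0.02, 0.25, 0.09 and -0.60. The summed intensity of the 10 main probe sets described here was 64760 to 75830 in VP16-CREB pools, against 55905 to 69550 in littermates, overlapping. Such sums follow the brightest probe sets. Here those were Slc1a2, Glul and Gja1, which averaged 21287, 16270 and 10379 in the VP16-CREB pools. The sum therefore says little about the dimmer members. As a check of RNA integrity, the actin 3' to 5' ratio ran from 1.44 to 1.61 in these VP16-CREB pools, against 1.36 to 1.56 in littermates. It reached higher values elsewhere. At 1 week off dox it ran from 1.40 to 1.59, against 1.47 to 2.00 in littermates. In A-CREB pools it ran from 1.40 to 2.48, against 1.37 to 1.98 in littermates. The part of these ratios in the comparisons was not tested.

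At 1 week off dox 5 of 16 reactive astrocyte genes and 3 of 18 microglia markers rose, with medians of 1.47 and 0.96. In A-CREB mice 0 genes of either list were called, with medians of 0.41 and 0.37. The mean profile of the 10 main probe sets, as log2 above the littermates' mean, was 0.57, 0.53 and 0.56 in the VP16-CREB pools 3 weeks off dox. It was 0.33 and 0.06 in those 1 week off dox and 0.08, -0.08 and 0.22 in the A-CREB pools. The 3 pools at 3 weeks thus lay close together in the mean, while those of the other transgenic groups were scattered. Single genes were less alike: VP16-CREB replicate 1 was the lowest of the 3 pools for Aqp4 and the highest for Mlc1.

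The members did not all follow each other. Over the 16 arrays, with each value centred on its own littermates' mean, the Pearson correlation of the 45 pairs of main probe sets ranged from -0.24 to 0.80 with a median of 0.41, and 35 were positive. Aqp4 and Mlc1 correlated at 0.72, and Aqp4 and Slc1a2 at -0.03. Slc1a2 followed other members more closely, with 0.79 for Gja1 and 0.78 for Glul. Of 12713 other genes, those whose main probe set followed the mean profile most closely were Hk2 (r = 0.959), Cd22 (0.950), Cotl1 (0.947), Gpam (0.941) and Itpr2 (0.941). Hk2, which encodes a hexokinase, read 422, 540 and 570 in VP16-CREB pools 3 weeks off dox, against 193, 238 and 197 in littermates. Cd22, a lectin gene of B cells and microglia, read 202, 190 and 215 in VP16-CREB pools, against 51.3, 107 and 55.2 in littermates. Cotl1 encodes an actin binding protein, Gpam an acyltransferase of lipid synthesis and Itpr2 the calcium release channel that astrocytes use. These correlations describe arrays that share scaling and group differences, and carry no test.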

How the data were processed

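RNA of 16 hippocampal pools was measured on Affymetrix Mouse Genome 430 2.0 arrays. The authors deposited intensity values on a linear scale, computed with MAS5 (version not given), according to the submitters' processing notes. Array files and detection calls were not used here, and the number of arrays limits the precision.

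Control probe sets (64) were left out, and log2(intensity + 10) was used. Probe sets above the median of all values (99.1) on at least 2 arrays were kept (27044, 60.0%). One linear model with a coefficient per group was fitted to all 16 arrays with limma 3.58.1 (lmFit, eBayes, 10 residual and 3.44 prior degrees of freedom, two-sided) in R 4.3.3 with the data.table package (1.17.8), with Benjamini-Hochberg adjustment. The method was tested on simulated data. Figures used Python 3.11.15 and matplotlib 3.10.9. Of 201 genes on the lists, 187 were found in the annotation.

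Named were all members, up to 4 called genes of each pathway or astrocyte list by size of difference at 3 weeks off dox (or the 2 of highest mean), and the 5 genes most like the members' mean profile. The members and lists were chosen with earlier results of these data known. Replicate numbers were checked for pairing, and in neither cohort of 3 pairs did every pair's deviations correlate above 0.1, so no block was used in the main analysis. Alternatives were other pseudocounts, filters and normalizations, array weights, a trend with robust variances, only the arrays compared, the mean of a gene's probe sets, a replicate block and leaving out every array in turn.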

Additional observations from a re-analysis of the deposited data

How the results depend on the processing

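Over 32 differences of single probe sets and genes and 522 alternatives, 471 kept their direction and side of the threshold, 11 lost and 7 gained a call, and 33 changed sign, all among uncalled differences. The cause was not tested. The count of called probe sets 3 weeks off dox, 5, was 12 with array weights, 10 with only the arrays compared and 2 to 4 with an array left out, lowest without VP16-CREB replicate 3. For the difference between the VP16-CREB and A-CREB effects the count of 0 became 2 with array weights and 1 with a replicate block. The block gave 6 calls 3 weeks off dox. Same-numbered pools correlated at -0.23 to 0.41 in their deviations, and own numbers correlated best in 1 of 3, 2 of 2 and 2 of 3 cases. With 2 pools a group both pairs must give the same correlation, so the count of 2 of 2 could only be all or none. For 6 week littermates of the VP16-CREB cohort the count of 3 became 1 with a filter on the mean, 14 with median centring, 6 with only the arrays compared and 1 to 3 with an array left out, lowest without 3 week littermate replicate 1.

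Mlc1 and Sox9 1424950_at stayed called in all alternatives run. Kcnj10 lost its call with no filter (adjusted p = 0.0670, limma) and with median centring (log2 0.81, adjusted p = 0.0963, limma). Array weights added calls for Slc1a3 (log2 0.68), Gjb6 (0.52), Aldh1l1 and the main Sox9 probe set. Only the arrays compared added the last 2 (adjusted p = 0.0128 and 0.0237, limma), and the mean over a gene's probe sets added Sox9 (0.79).

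The log2 differences 3 weeks off dox that changed sign were those of Slc1a2 (0.037 with quantile normalization, 0.076 with the gene's mean, -0.135 to 0.073 with an array left out) and Glul (0.0095, 0.0054 and -0.191 to 0.083 in the same settings). At 1 week they were Slc1a2 (-0.037 with quantile normalization, -0.016 with median centring, -0.094 to 0.276 with an array left out) and Gjb6 (-0.071 with median centring, -0.263 to 0.334). With an array left out Mlc1 ranged from -0.030 to 0.249, Slc1a3 from -0.338 to 0.946, Kcnj10 from -0.022 to 0.490, Aldh1l1 from -0.327 to 0.658 and Sox9 from -0.107 to 0.327. In A-CREB mice they were Aqp4 (-0.0548 with array weights, -0.0091 with the gene's mean, -0.0544 to 0.205 with an array left out), Slc1a2 (0.0042 with the gene's mean, -0.200 to 0.134), Kcnj10 (-0.371 to 0.026) and Glul (-0.129 with the gene's mean, -0.069 to 0.216).

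Differences of dim probe sets are limited by the noise of MAS5 at low intensity. With 2 pools a group at 1 week, leaving 1 out assumes that the other varies like the other groups.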
